A study of Mus musculus with 6 samples.

Results

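The genes described here are 36 genes of spermatids, the acrosome and the sperm tail, chosen as every non-control probe whose gene name in the array files is one of their names. They were carried by 53 of the 55681 non-control probes, and by 36 of 35071 gene names. They were selected on function, with the group differences and background flags of these same arrays already known, so counts over them are descriptions and not independent evidence for any direction. By the same rule the probes well above background on all 6 arrays were kept apart from dimmer ones.

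Whole testes of male mice of mixed FVB.129/Sv strain were taken on postnatal day 0. Their total RNA was labelled with Cy3 and hybridised to Agilent arrays, with 1 biological replicate per array and 2 per group. The sample labels do not say how many animals a replicate holds. Every animal carried the Ddx4 (Vasa) Cre transgene, whose driver is active in germ cells. VSKO animals carried 1 deleted and 1 floxed allele of Sin3a, the scaffold of a histone deacetylase complex, HEMI animals carried 1 deleted allele beside a wild-type allele, and WT animals carried 2 wild-type alleles. The comparison of VSKO with WT addresses the loss of both alleles in germ cells, and that of HEMI with WT the loss of 1. That of VSKO with HEMI addresses the loss of the remaining allele, and the 3 comparisons share arrays. The deleted allele is given as part of the genotype of VSKO and HEMI animals, so their somatic cells may also lack 1 allele. In whole testes this cannot be told apart from loss in germ cells in either comparison with WT. Because the testis was taken whole, fewer cells of a type and less RNA per cell cannot be told apart. Which exons the deleted allele lacks is not given in the sources used here.

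Spermatids are the haploid germ cells that reshape themselves into sperm. They build the acrosome, a secretory vesicle over the nucleus that carries enzymes and proteins for meeting the egg. They also assemble a flagellum around a microtubule axoneme that tektins help to stabilise, and replace histones first with transition proteins and then with protamines. In the mouse these genes are known mainly for transcription after meiosis, driven in part by the activator CREM, whereas the germ cells of a newborn testis are gonocytes that have not begun meiosis. Several axonemal genes are also used by multiciliated epithelia such as those of the efferent ducts.

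On these arrays 59.2 to 64.5% of non-control spots were well above background, no spot was saturated, and the processed signal had a 75th percentile of 652 to 857. Levels below are log2 processed signal minus that percentile, so that 0 stands for the 75th percentile of an array. The Sin3a probe read 0.61 and 0.38 in VSKO, 0.89 and 0.89 in HEMI, and 1.09 and 1.11 in WT. Its VSKO level was 0.60 lower than WT (log2, adjusted p = 0.133, limma with Benjamini-Hochberg adjustment), and whether it lies in the deleted exons is unknown, so it may check nothing. The 4 VSKO and HEMI arrays lay on row 1 of their slides and the 2 WT arrays on row 2, so slide row and genotype cannot be told apart in any comparison with WT. The labels call the samples biological replicates, and with 2 per group their number limits the precision.

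The RefSeq promoter table (GRCm38.p6) held 42 windows of 32 of these genes. Among the 5 genes that passed the test in some comparison (Dkkl1, Tekt1, Morn5, Iqcf4 and Spata21), bases lying upstream of the start and outside every annotated gene span could be shown for 3. They are printed because the results turn on these genes, and to show how the CG content before their starts varies. Capitals mark CG pairs, the sites of DNA methylation, and each run reads 5′ to 3′ on the gene's strand. Iqcf4 is shown for chr9:106570968-106571217 (minus strand), Morn5 for chr2:36049339-36049472 (plus strand) and Spata21 for chr4:141088095-141088319 (plus strand).
Iqcf4: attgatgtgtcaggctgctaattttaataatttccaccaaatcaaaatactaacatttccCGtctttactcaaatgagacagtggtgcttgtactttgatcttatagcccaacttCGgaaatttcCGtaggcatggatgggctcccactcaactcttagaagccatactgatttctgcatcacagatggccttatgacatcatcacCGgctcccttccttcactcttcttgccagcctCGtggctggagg
Morn5: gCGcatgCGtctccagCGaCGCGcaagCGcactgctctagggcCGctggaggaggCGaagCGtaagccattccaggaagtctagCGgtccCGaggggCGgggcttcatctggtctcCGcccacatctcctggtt
Spata21: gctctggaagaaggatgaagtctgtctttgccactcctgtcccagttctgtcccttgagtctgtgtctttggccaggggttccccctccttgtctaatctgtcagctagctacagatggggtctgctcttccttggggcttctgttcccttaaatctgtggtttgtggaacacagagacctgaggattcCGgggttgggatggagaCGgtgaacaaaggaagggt

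The 134 bases before Morn5 held 13 CG pairs, the 250 bases before Iqcf4 held 5, and the 225 bases before Spata21 held 2. Over the full 250 bases upstream, the windows of Morn5, Tekt1 and Dkkl1 held 23, 18 and 11 CG pairs, against a median of 6 over all 32851 windows and 7.5 over the windows of the listed genes. A second annotated start of Tekt1 had 5. On either strand, the CRE to which CREM binds (TGACGTCA) was found in 2 of 42 windows (4.76%, Izumo1 and Spag6) against 1.55% of all windows. Its shorter core TGACG, which every full CRE also contains, was found in 13 (31%) against 17.8%, with Tekt1, Morn5, Ldhc and Odf2 among the genes. The E2F motif GGCGGGA was in 3 windows (7.14%, Hook1 and Spaca1) against 9.75%, and the X-box of ciliary genes in 1 (2.38%, Spag16) against 0.667%. Each annotated start counts as a window. Spaca1 thus counts at 2 nearby starts for E2F, and Odf2, Spaca1 and Tekt1 count at 2 starts each for TGACG. These are letter matches only.

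RNA of 20 of these 36 genes was above background on all 6 arrays of newborn testes, and 6 genes were above background on none. Of the 53 probes, 29 were well above background on all 6 arrays (54.7%), 13 on 1 to 5 arrays and 11 on none (20.8%). Over all non-control probes the shares were 55% on all 6 and 30.6% on none. Beside the 20 genes, a further 4, Tekt5, Gapdhs, Prm1 and Iqcf4, were kept because 1 group or more had a probe above background on each of its arrays, which gave 24 genes for testing. The remaining 12 were not tested.

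**Figure D1:**
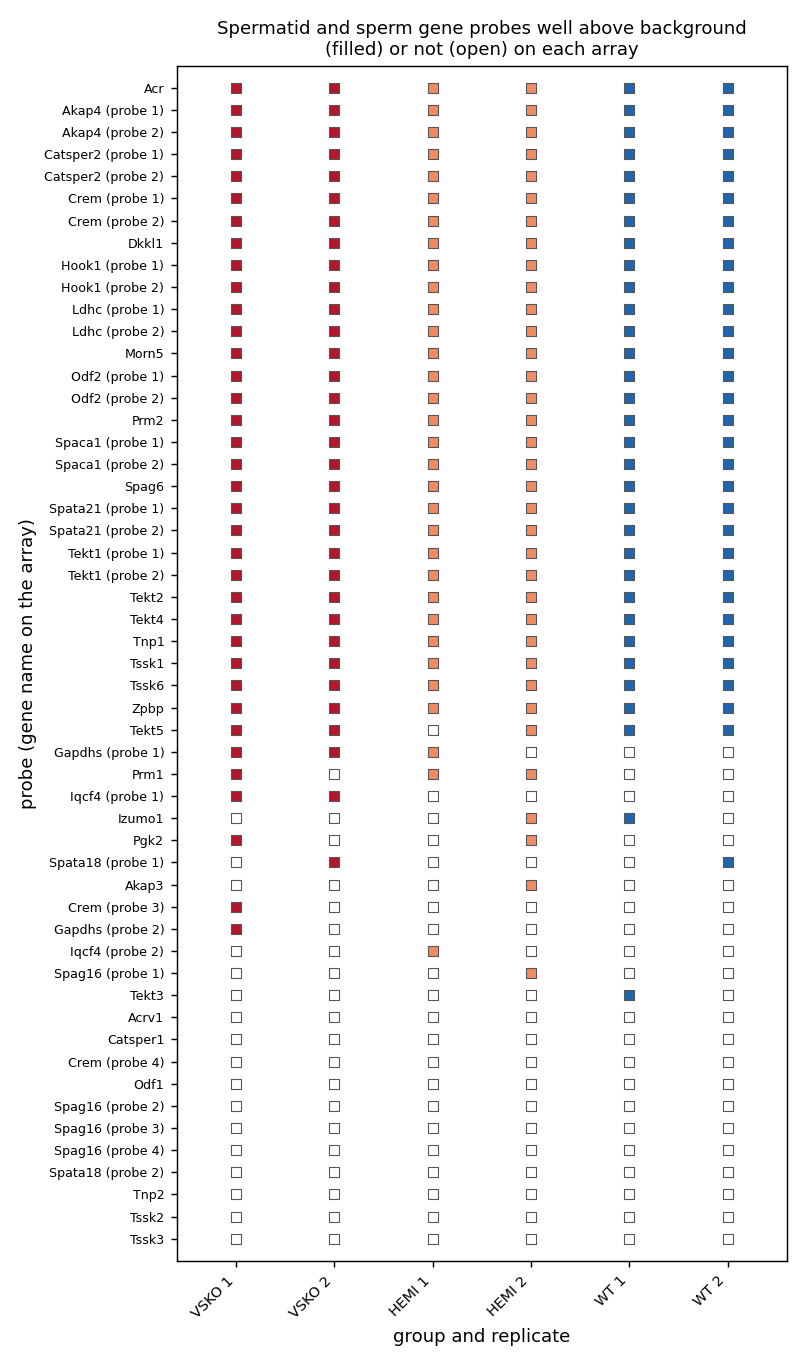
Each row is 1 of the 53 probes, named by gene, and each column is 1 of the 6 arrays; a filled square marks a probe well above background on that array and an open square one that was not. The upper 29 probes are filled on all 6 arrays and the lower 11 on none.

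No probe was above background on any array for Acrv1 (an acrosomal vesicle protein), Catsper1 (a pore subunit of the sperm calcium channel), Odf1 (outer dense fibres of the tail), Tnp2 (a transition protein) or the testis-specific kinases Tssk2 and Tssk3. Scattered arrays passed for another 6 genes. Izumo1, the sperm protein that binds its egg receptor, was above background on 2 arrays, HEMI 2 and WT 1. Pgk2, the germ-cell phosphoglycerate kinase, passed on VSKO 1 and HEMI 2, and Spata18 on 2 arrays. Akap3, an anchoring protein of the fibrous sheath, Spag16, an axonemal central-pair protein, and Tekt3 passed on 1 array each. Tekt3 read −3.69 on WT 1, where it passed, and −5.72 on WT 2.

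At the edge of detection, the dimmest probe that passed on all 6 arrays was that of Tssk1 (mean level −4.98). Just outside were Tekt5, which passed on 5 arrays, and Prm1, with a mean level of −4.96, which passed on 3.

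In VSKO against WT testes, 4 of the 24 tested genes rose and none fell at an adjusted p under 0.05 (limma, Benjamini-Hochberg over 24563 genes). At an unadjusted p under 0.05 there were 9, of which 6 were higher and 3 lower in VSKO. The genes that rose were Dkkl1, Tekt1, Morn5 and Iqcf4, whereas the median difference over the 24 was −0.15 (log2), against −0.01 over all genes. Of all genes 0.977% were called, 0.346% as higher and 0.631% as lower, and 14.7% had an unadjusted p under 0.05. In VSKO against HEMI the same 4 genes and Spata21 rose and none fell, where 0.142% of all genes were called, 0.102% as higher and 0.0407% as lower. At an unadjusted p under 0.05 there were 9, against 7.70% of all genes. The median over the 24 was 0.24, against 0.02 over all genes. In HEMI against WT, Spata21 fell and none rose, where 0.118% of all genes were called, 0.0326% as higher and 0.0855% as lower. At an unadjusted p under 0.05 there were 8, against 12.4% of all genes. The median was −0.26, against −0.02 over all genes. These contrasts were known when the list was made, so nothing is read from the shares. Iqcf4 was tested only because its probe passed background on both VSKO arrays, the group in which it is high, so its call depends on that filter. A separate fit used only probes above background on all 6 arrays, which left 20 of these genes. There 3 were called in VSKO against WT (Dkkl1, Morn5 and Tekt1), 4 in VSKO against HEMI (these and Spata21) and 1 in HEMI against WT (Spata21). Of all genes, 215, 15 and 68 were called in that fit, in the same order, against 240, 35 and 29 in the main fit.

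Leaving out 1 array at a time gave 0 to 2 called genes in VSKO against WT, 0 in HEMI against WT and 0 to 1 in VSKO against HEMI. No called gene remained in VSKO against WT without WT 1 or without WT 2, only Iqcf4 without either VSKO array, and Dkkl1 and Iqcf4 without either HEMI array. In VSKO against HEMI only Iqcf4 remained without either VSKO array, and none without any HEMI or WT array. In HEMI against WT, Spata21 was not called without any 1 of the 6 arrays. Over all genes, calls also fell in each of these refits, except in VSKO against HEMI without VSKO 1, where they rose. Each refit leaves 1 array in a group, so nothing is read from the lost calls. The 10 called differences could not change direction in these refits, since both arrays of a group lay beyond both arrays of the other. The difference of Dkkl1 between VSKO and WT stayed between 1.95 and 1.98 and that of Tekt1 between 1.41 and 1.70.

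**Figure D2:**
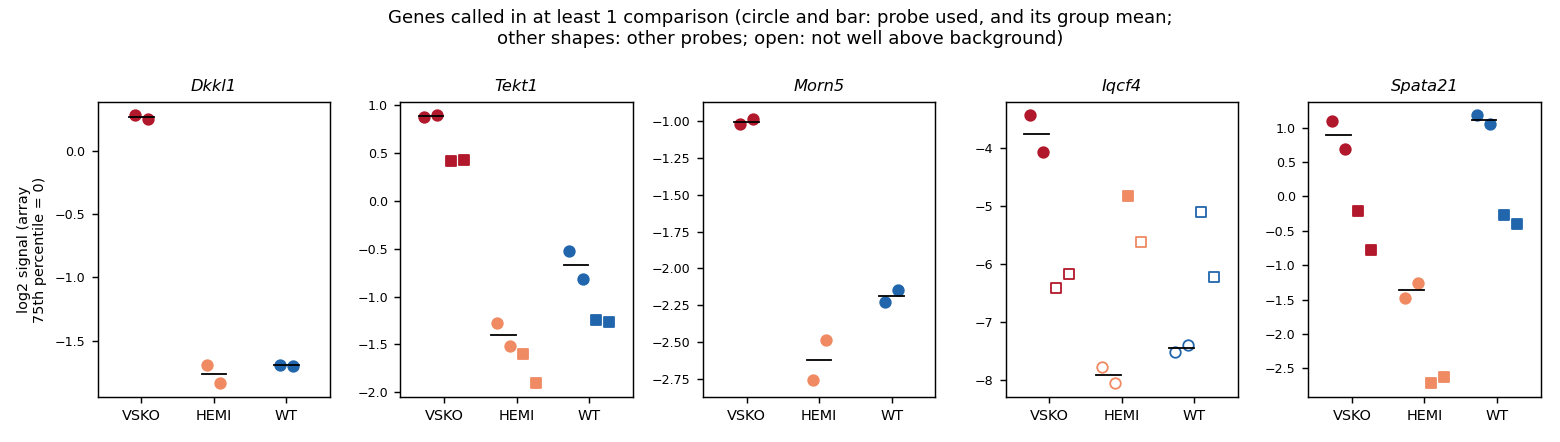
Level on each array (log2 processed signal minus the 75th percentile) of the 5 genes called in some comparison, with 1 point per array for each probe. Circles and bars give the probe used and its group mean, other shapes give other probes, and open symbols were not well above background. Dkkl1, Tekt1, Morn5 and the used probe of Iqcf4 are highest on both VSKO arrays, and Spata21 is lowest on both HEMI arrays.

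Dkkl1 encodes a secreted protein of the dickkopf family that is found in the acrosome. Its level was 0.28 and 0.25 in VSKO, −1.69 and −1.84 in HEMI, and −1.69 and −1.70 in WT. Both VSKO arrays stood above all 4 others, and the HEMI and WT ranges overlapped. The difference was 1.96 ± 0.118 (log2 ± SE) between VSKO and WT, a 3.9-fold rise, and 2.03 between VSKO and HEMI, or 4.09-fold. HEMI differed from WT by −0.07 (adjusted p = 0.834, limma). The probe lies at chr7:52462916-52462975 on the minus strand in mm9, the build of the array files.

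Among the tektins, filament proteins of the axonemal microtubule doublets, Tekt1 was the one that rose. Its level was 0.88 and 0.89 in VSKO, −1.28 and −1.52 in HEMI, and −0.53 and −0.82 in WT. The groups did not overlap, with VSKO highest and HEMI lowest. VSKO exceeded WT by 1.56 ± 0.160, or 2.95-fold, and HEMI by 2.28, or 4.86-fold. HEMI differed from WT by −0.72 (adjusted p = 0.184, limma). Another probe of Tekt1, which does not overlap the first, gave 0.42 and 0.43 in VSKO, −1.60 and −1.91 in HEMI and −1.24 and −1.27 in WT, with differences of 1.68, −0.50 and 2.18.

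Morn5 encodes a protein with MORN repeats that has been found in the sperm flagellum. It read −1.02 and −0.99 in VSKO, −2.75 and −2.49 in HEMI, and −2.23 and −2.15 in WT. Again both VSKO arrays were above all others, and both HEMI arrays were below both WT arrays. The rise was 1.18 ± 0.139 over WT, or 2.27-fold (adjusted p = 0.0424, limma), and 1.62 over HEMI, or 3.07-fold (adjusted p = 0.0458). Both lie close to the threshold. Neither was called with quantile normalization or with the series table, while both were called with normexp background correction. The HEMI difference from WT was −0.43 (adjusted p = 0.325, limma).

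Iqcf4, a member of a family of calmodulin-binding IQ motif proteins expressed in testis, was well above background on both VSKO arrays and on no other array for the probe used. That probe (chr9:106470652-106470711, minus strand, mm9) read −3.44 and −4.07 in VSKO, −7.77 and −8.05 in HEMI, and −7.52 and −7.39 in WT. Since HEMI and WT were not well above background, the rise is given as a bound: at least 2.92-fold over WT and at least 3.99-fold over HEMI. Bounds of this kind set the bright group's mean against, on each dim array, the higher of the probe's own signal and the lowest spot signal that was well above background. Such a bound does not allow for the spread between replicates. The other probe of Iqcf4 did not show the rise. It read −6.42 and −6.17 in VSKO, −4.83 and −5.63 in HEMI, and −5.11 and −6.23 in WT, and passed background only on HEMI 1, so the probes disagree.

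Spata21, a calcium-binding EF-hand protein gene of testis, had another pattern. Its level was 1.10 and 0.70 in VSKO, −1.47 and −1.26 in HEMI, and 1.18 and 1.05 in WT. Both HEMI arrays were far below all others, while VSKO and WT overlapped. HEMI fell by 2.48 ± 0.183 against WT, a 5.58-fold difference (adjusted p = 0.0408, limma). VSKO was 2.27 above HEMI, or 4.81-fold (adjusted p = 0.0407, limma). Both lie close to the threshold, and the difference between VSKO and HEMI was not called with quantile normalization. VSKO differed from WT by −0.21 (adjusted p = 0.639, limma). The other probe read −0.21 and −0.78 in VSKO, −2.72 and −2.63 in HEMI, and −0.27 and −0.40 in WT, with the same order of groups. In a limma fit over all kept probes its adjusted p was 0.0568 for HEMI against WT and 0.0701 for VSKO against HEMI. The probe used had 0.0354 and 0.0513 in that fit.

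Ldhc, the lactate dehydrogenase subunit of male germ cells, was measured by 2 probes. The probe used read −0.31 and −0.26 in VSKO, −1.21 and −1.08 in HEMI and −0.02 and −0.19 in WT. HEMI was below both other groups, by 1.04 against WT (SE 0.128, adjusted p = 0.0845, limma) and by 0.86 against VSKO (adjusted p = 0.133), neither below the threshold. Akap4, the main anchoring protein of the fibrous sheath, showed −2.90 and −3.26 in VSKO, −4.41 and −4.09 in HEMI and −3.01 and −3.43 in WT. HEMI differed by −1.03 from WT (adjusted p = 0.184, limma) and VSKO by 0.15 from WT (adjusted p = 0.808), which was −0.03 without VSKO 1 and −0.06 without WT 2. As for Ldhc, both HEMI arrays were below all others, and the test did not separate them. Another probe of Akap4, which overlaps the first in position, had both VSKO arrays above both WT arrays, by 0.59, and HEMI below WT by 0.80.

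Of the other tektins, Tekt2 read −1.84 and −1.14 in VSKO, −1.09 and −0.93 in HEMI, and −0.35 and −0.80 in WT. The difference between VSKO and WT was −0.92 ± 0.284 (adjusted p = 0.244, limma), and it ran from −1.27 to −0.56 when a VSKO array was left out. The test was not passed. Tekt4 varied by under 0.3 between groups. Tekt5 read −4.90 and −4.95 in VSKO, −5.79 and −5.08 in HEMI and −4.68 and −4.75 in WT, with a VSKO difference from WT of −0.21 (adjusted p = 0.745, limma). Its HEMI difference from WT of −0.72 (adjusted p = 0.347) was −0.36 without HEMI 1.

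Odf2, a protein of the outer dense fibres and of centrioles, was measured by 2 probes, the brighter of which read 2.06 and 1.92 in VSKO, 1.67 and 1.57 in HEMI and 0.77 and 1.34 in WT. All 4 arrays with a deleted allele were above both WT arrays. The excess over WT was 0.94 ± 0.213 in VSKO (adjusted p = 0.148, limma) and 0.56 in HEMI (adjusted p = 0.382). The HEMI value was 0.28 without WT 1 and 0.85 without WT 2. The other probe of Odf2 gave an excess of 0.72 and 0.63. The axonemal central-pair gene named Spag6 on the array, now Spag6l, read −3.38 and −3.64 in VSKO, −2.89 and −3.44 in HEMI and −2.94 and −2.88 in WT. Both VSKO arrays were below both WT arrays, by 0.60 (adjusted p = 0.304, limma).

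Tnp1, a transition protein, read −0.92 and −0.43 in VSKO, −1.49 and −1.58 in HEMI and −1.33 and −1.42 in WT. Both VSKO arrays were above the 4 others, with a difference of 0.70 ± 0.191 from WT (adjusted p = 0.198, limma), which ran from 0.46 to 0.95 when 1 array was left out. The protamine gene Prm2 read −3.54 and −2.91 in VSKO, −3.26 and −3.17 in HEMI and −2.73 and −3.19 in WT, and its groups overlapped. Prm1 was above background on VSKO 1, HEMI 1 and HEMI 2 and read −4.88 and −5.66 in VSKO, −3.08 and −4.98 in HEMI, and −5.97 and −5.20 in WT. Its HEMI difference from WT was 1.56 ± 0.685 (adjusted p = 0.442, limma), which was 0.61 without HEMI 1. The bound set by the background floor was 2.38-fold. It does not allow for the spread between replicates, so it is no minimum for this uncalled difference.

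Among genes of the acrosome, Acr, the protease acrosin, read −3.54 and −3.69 in VSKO, −3.92 and −4.02 in HEMI and −3.72 and −3.95 in WT. Its VSKO level was 0.22 above WT (adjusted p = 0.541, limma), which became 0.10 without WT 2, 0.14 without VSKO 1 and 0.33 without WT 1. Zpbp, a zona pellucida binding protein, read −4.50 and −4.65 in VSKO, −4.55 and −4.55 in HEMI and −4.08 and −3.87 in WT. Both WT arrays were above the 4 others, by 0.60 ± 0.135 over VSKO (adjusted p = 0.146, limma). Spaca1, an acrosomal membrane protein, read −1.87 and −1.87 in VSKO, −1.44 and −1.29 in HEMI and −1.67 and −1.22 in WT, with both VSKO arrays lowest. The VSKO difference from WT was −0.42 (adjusted p = 0.375, limma), which became −0.20 without WT 2 and −0.65 without WT 1. Gapdhs, the sperm glycolytic GAPDH, was above background on both VSKO arrays and HEMI 1 and read −4.96 and −4.95 in VSKO, −5.13 and −5.53 in HEMI and −7.30 and −5.21 in WT. Its VSKO difference from WT of 1.30 ± 0.668 (adjusted p = 0.445, limma) was 0.26 without WT 1, so it rested on that array. The bound of 1.26-fold for Gapdhs covers the background floor only and is no minimum for this uncalled difference. The HEMI difference from WT of 0.92 (adjusted p = 0.624, limma) became −0.12 without WT 1.

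Crem itself was measured by 4 probes. The probe used read −1.05 and −0.77 in VSKO, −0.86 and −0.94 in HEMI, and −0.58 and 0.61 in WT, the last on WT 2. The VSKO difference of −0.93 ± 0.392 from WT (adjusted p = 0.365, limma) was −0.33 without WT 2 and −1.52 without WT 1. The HEMI difference of −0.92 (adjusted p = 0.432, limma) likewise became −0.32 without WT 2. A further probe of Crem was also highest on WT 2, at 0.42 against −1.24 on WT 1.

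Catsper2, Hook1, Prm2, Tekt4 and Tssk6 differed by under 0.3 in every comparison, between −0.27 and 0.13, with adjusted p from 0.502 to 0.999 (limma). Hook1 codes for a microtubule linker of the spermatid manchette and Tssk6 for a testis-specific kinase. Tssk1, another such kinase, read −5.09 and −5.44 in VSKO, −4.41 and −5.22 in HEMI and −4.70 and −5.00 in WT. Both of its VSKO arrays were below both WT arrays, with a difference of −0.42 (adjusted p = 0.588, limma) that became −0.24 without VSKO 2 and −0.27 without WT 1, and HEMI overlapped both groups. Over all tested genes that were not called, the difference ran from −0.93 to 1.30 for VSKO against WT (20 genes), from −1.04 to 1.56 for HEMI against WT (23) and from −1.24 to 1.17 for VSKO against HEMI (19).

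Counted by arrays alone, both VSKO arrays lay above both WT arrays for 8 of the 24 tested genes and below for 10, and the groups overlapped for 6. Over all genes the shares were 22.3% above and 23.4% below. Both HEMI arrays lay above both WT arrays for 2 genes and below for 12, where 21.0% and 28.4% of all genes did so. Both VSKO arrays lay above both HEMI arrays for 12 genes and below for 3, where 18.8% and 14.1% of all genes did so. The members were chosen with these contrasts known, so the shares are given and nothing is read from them.

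**Figure D3:**
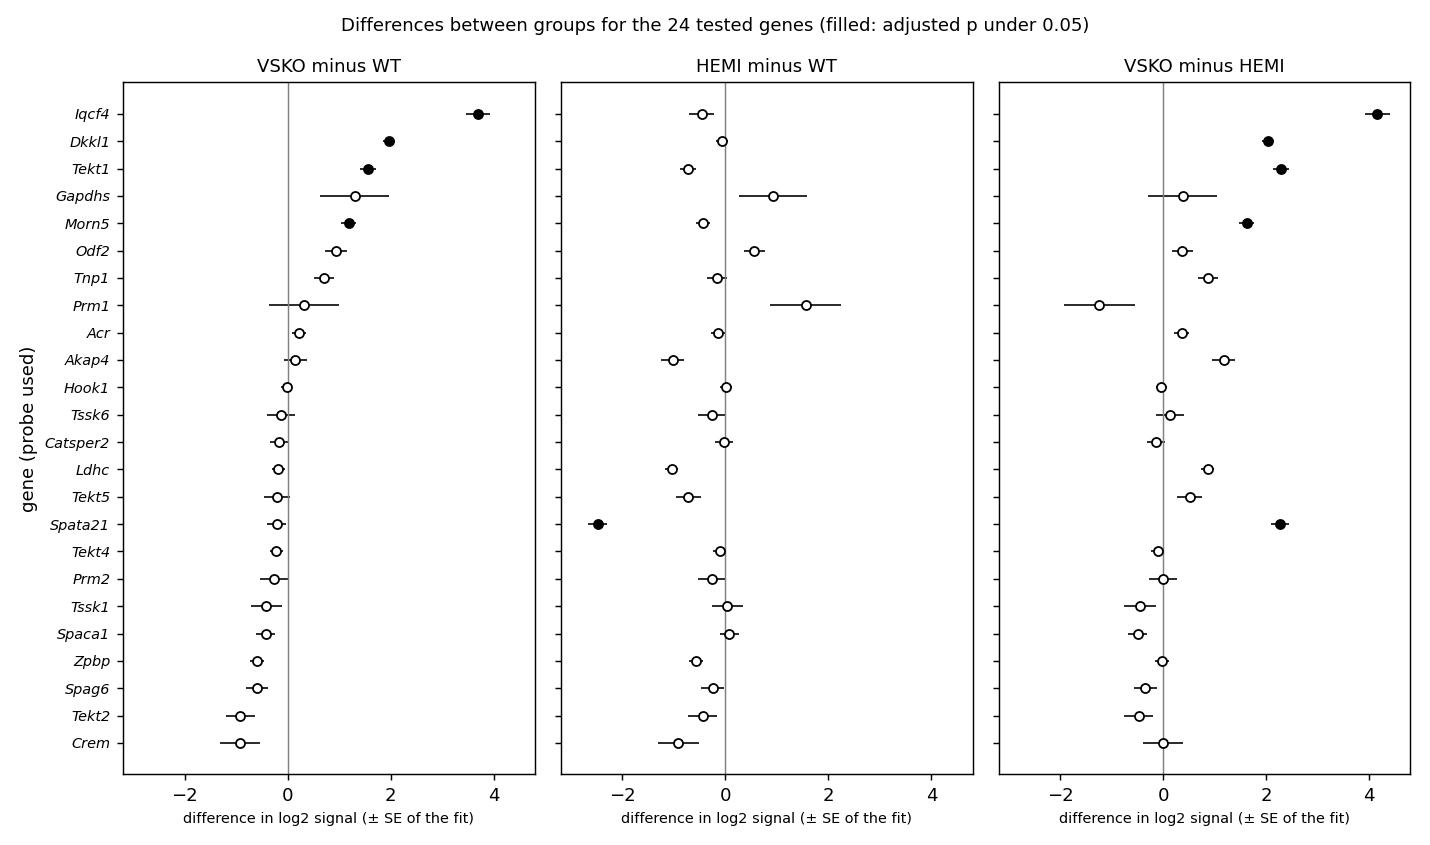
Difference in log2 signal of the 24 tested genes in the 3 comparisons, with error bars of the standard error of the fit and filled points where the adjusted p was under 0.05. Differences run from −2.48 (Spata21, HEMI against WT) to 4.16 (Iqcf4, VSKO against HEMI). The Iqcf4 probe used was not well above background in HEMI or WT, so the size of its rise is not measured. Its other probe did not show the rise.

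Other genes of the same stage and structures, taken from lists chosen with earlier results of these arrays known, are given next. In VSKO against WT 0.977% of all genes were called, and the shares of all genes at an unadjusted p under 0.05 were 14.7%, 12.4% and 7.70% in VSKO against WT, HEMI against WT and VSKO against HEMI. The unadjusted counts below follow the same order. Of 57 further spermatid and sperm genes on the array, 30 were tested and 19 were above background on no array; Spata4 fell in VSKO against WT, by 1.88 ± 0.224 (log2, adjusted p = 0.0431, limma). Of the 30, the unadjusted counts were 6, 6 and 2. The median difference of the list was −0.05, −0.14 and 0.08 in VSKO against WT, HEMI against WT and VSKO against HEMI. Of 54 motile cilium and axoneme genes, 52 were tested, and in VSKO against WT Lrriq1 (1.72 ± 0.196) and 1110017D15Rik (1.20 ± 0.146) rose and Dnah5, an outer dynein arm heavy chain, fell by 1.49 ± 0.144 (adjusted p 0.0388, 0.044 and 0.0297, limma). Of these 52, 22, 16 and 14 had an unadjusted p under 0.05, and the median differences were 0.03, −0.10 and 0.13. Of 24 regulators of haploid genes on the array, 23 were tested and none was called in any comparison (limma). Their unadjusted counts were 4, 2 and 2. That list also holds Sin3a, the deleted gene itself (−0.60 in VSKO against WT, adjusted p = 0.133, limma), and Sin3b, Hdac1 and Hdac2. No gene of these 3 lists was called in HEMI against WT or VSKO against HEMI (limma). The summed level of the cilium list was 39.5 to 40.3 in VSKO, 33.5 to 37.5 in HEMI and 39.1 to 40.2 in WT.

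Markers of cell types that the tissue could hold are given beside these differences. All 13 markers of the multiciliated epithelium are also in the motile cilium and axoneme list. Of them 11 were tested, and Dnah9 and Spag17 were above background on no array. Foxj1, a regulator of that epithelium, was 1.05 (log2) higher in VSKO than WT (adjusted p = 0.0778, limma). It was also 0.84 higher in HEMI than WT (adjusted p = 0.173), and VSKO differed from HEMI by 0.21 (adjusted p = 0.987). Ccno was 0.71 lower in VSKO than WT (adjusted p = 0.421), and Fam183b was 1.54 lower in HEMI than WT (adjusted p = 0.0571). In VSKO against WT Dnah5 fell, which is the call already given above. The median differences of the list were 0.13, −0.05 and 0.15. The unadjusted counts were 4, 3 and 3. The summed linear level of the list, in units of the array's 75th percentile, was 17.7 to 19.1 in VSKO, 13.5 to 18.1 in HEMI and 16.4 to 18.3 in WT. For mesonephric duct, epididymis and rete, 13 of 15 markers were tested and Lhx1 rose by 1.25 in VSKO against WT (adjusted p = 0.0431, limma). Lhx1 was also 1.52 higher in HEMI than in WT (adjusted p = 0.0527), and VSKO differed from HEMI by −0.27 (adjusted p = 0.866). The list had unadjusted counts of 2, 2 and 3 and sums of 34.5 to 48.9, 46.2 to 54.9 and 40.7 to 46.2. Of 16 germ cell markers all were tested and Nanos2, the germline RNA regulator, fell by 2.93 in VSKO against WT (adjusted p = 0.0424, limma). The germ cell list had unadjusted counts of 7, 6 and 6, median differences of −0.34, −0.28 and −0.08, and sums of 37.8 to 39.8, 35.9 to 40.4 and 40.0 to 45.5. Of 18 meiotic prophase markers none was called in any comparison (limma), with 3, 4 and 4 at an unadjusted p under 0.05 and sums of 22.2 to 23.9, 21.8 to 24.2 and 22.1 to 25.6. The haploid spermatid list is made of 10 of the genes described here, of which Tnp2, Acrv1 and Odf1 were above background on no array. Of its 6 tested genes none was called in any comparison (limma), and the unadjusted counts were 1, 1 and 3. Its sums were 1.14 to 1.35 in VSKO, 1.01 to 1.06 in HEMI and 1.08 to 1.10 in WT. Tnp1, the brightest of them in VSKO, was 0.70 higher in VSKO than WT (adjusted p = 0.198, limma). Prm1, Acr and Akap4 were also higher, and Spaca1 and Prm2 lower, none of them called. Of 14 Sertoli cell markers none was called (limma), with 3, 4 and 0 at an unadjusted p under 0.05, and their sums were 512 to 534, 467 to 521 and 581 to 582. Of 11 fetal Leydig cell markers Cyp17a1, a steroid hydroxylase, fell by 1.40 in VSKO against WT (adjusted p = 0.0423, limma). The Leydig list had unadjusted counts of 5, 5 and 0, median differences of −0.42, −0.61 and 0.11, and sums of 175 to 188, 159 to 192 and 237 to 273. The part of any of these in the differences of the 5 called genes was not tested.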

How the data were processed

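The 6 arrays of whole testes (3 groups of 2) were compared. Each file holds the scanner output of 1 array. The intensity values used are the processed signals that the authors deposited, which per the file headers are already background-subtracted (Feature Extraction spot analysis module 10.7.3.1; the submitters' processing notes give Agilent Feature Extraction 8.5.1.1). Flags for spots well above background and for outliers were used as deposited. The deposited series table equals the processed signal over each array's median, within 0.001%.

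From these, log2 processed signal minus the array's 75th percentile was taken, outlier spots were left out and spots of a probe averaged. A probe was kept if each array of 1 group or more had it well above background (34346 of 55681), and the brightest kept probe stood for a gene (24563 genes). Groups were compared with limma 3.58.1 in R 4.3.3 (lmFit and eBayes, 3 residual and 2.25 prior degrees of freedom, no replicate block) with Benjamini-Hochberg adjustment over all genes, and called at 0.05. The scripts were tested on simulated data. The floor of a bound is the lowest single spot well above background on an array, a choice made after the data were seen, since averaged probes had first been used and gave larger bounds.

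Names came from RefSeq through accessions (26762 probes), other accessions (101) or symbols (3752), and otherwise from the files (25066). Probe positions are mm9 per the file headers; exon annotation of that build was not used here. Named were all listed genes above background on all 6 arrays, those kept otherwise and those called, with genes differing by under 0.3 in every comparison given by range. The members and all lists (other spermatid and sperm genes, motile cilium and axoneme, regulators of haploid genes, and markers of germ cells, meiotic prophase, haploid spermatids, multiciliated epithelium, mesonephric duct, Sertoli and fetal Leydig cells) were chosen with earlier results of these data known. Alternatives tried were quantile normalization, normexp with an offset of 50, the series table, no filter on dim probes, detection on all 6 arrays, probe means, a trend, a replicate block, only the 4 arrays compared and leaving out each array.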

Additional observations from a re-analysis of the deposited data

How the results depend on the processing

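With 2 biological replicates per group the counts of called genes are small and move with the setting (VSKO against WT 4, HEMI against WT 1, VSKO against HEMI 5). Quantile normalization gave 3 in VSKO against HEMI, where calls over all genes went from 35 to 17. Normexp and a trend in the variance each gave 2 in HEMI against WT, with Ldhc added. Calls over all genes in that comparison rose from 29 to 132 with normexp and to 130 with a trend. Without a filter on dim probes all 3 counts were 0 (limma), where 36 of these genes were tested and 12, 0 and 5 of all genes were called, with 4730, 5277 and 2265 at an unadjusted p under 0.05. Only the 4 arrays compared gave 2, 0 and 0, where 48, 4 and 0 of all genes were called. Leaving out 1 array gave 0 to 2, 0 to 0 and 0 to 1 (limma; 1696 to 3946 of all genes at an unadjusted p under 0.05). The replicate block gave 1 (Iqcf4), 0 and 0, where 19, 0 and 0 of all genes were called. With the block, 3441, 2798 and 1876 of all genes had an unadjusted p under 0.05. Replicate numbers did not pair the samples, since deviations of same-numbered arrays correlated at −0.04, −0.03 and −0.01. The other settings kept the counts within 1.5 times. Iqcf4 reversed without the filter, to −0.63 in VSKO against WT and −1.07 in VSKO against HEMI, because its other probe is brighter on average and is then used. With a floor from averaged probes, the version used first, the bounds for Iqcf4 were 5.08 over WT and 8.54 over HEMI, for Prm1 2.94 and for Gapdhs 1.69; the smaller bounds from single spots replaced them after the first were seen. None of the other called differences changed direction in any alternative. Where 1 array was left out this could not occur, since the groups compared did not overlap. Of the 62 uncalled differences, 19 changed sign in some alternative, the largest of them 0.92 (Gapdhs, HEMI against WT). For the 12 genes left out and the 4 kept on fewer than 6 arrays, signal over background limits what could be seen.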
